A study of Mus musculus with 18 samples.

Results

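Late primordial germ cell-like cells (PGCLC) of Esrrb knockout lines were compared with wild-type (WT) PGCLC of the same age. The comparison holds 6 of the 18 libraries of the series: the 3 libraries of knockout (KO) lines A5, B1 and A2 and the 3 libraries numbered WT 1, 2 and 3, all chosen by their labels alone. The other 12 libraries are epiblast-like cells (EpiLC) and day 3 PGCLC of both genotypes, with 3 libraries per group, and serve here only to estimate the spread and to place the day 5 values beside those of day 3. The late libraries carry 5 days of differentiation in their characteristics and titles and d6 in their descriptions; they are called day 5 below.

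All 6 libraries came from mouse embryonic stem cells of the SGET reporter line, strain B6CBA/129, kept in 2i and LIF. The cells were turned into EpiLC with activin A and bFGF, then induced to PGCLC with BMP4, LIF, SCF, BMP8a and EGF, and the fraction SG+ETlow was sorted by flow cytometry. SGET cells carry a Stella (Dppa3) and an Esg1 (Dppa5a) reporter, so the gate itself reads the activity of these genes in both genotypes. The only labelled difference between the groups is the Esrrb genotype. The titles number the KO lines and call A2 KO2, and the labels do not say how the lines were derived, which part of the gene was removed, or whether the WT libraries came from separate lines or cultures. The p-values rest on the spread between libraries within groups, pooled over all 18 libraries of the series and not only these 6. That spread may be technical on the WT side. Differences between lines other than the Esrrb genotype cannot be told apart from that genotype.

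Esrrb is an orphan nuclear receptor of the estrogen-related family that binds an extended half-site in DNA and sustains the naive pluripotency network of mouse embryonic stem cells together with Nanog, Klf4, Tfcp2l1 and Tbx3. Its expression falls when naive cells pass to the epiblast-like state and returns in germ cells, where Prdm1, Prdm14 and Tfap2c set up the germ cell programme and part of the naive network is switched on again. Members of the family are also known as regulators of genes of mitochondrial and oxidative metabolism.

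The 6 day 5 libraries held 4067737 to 4927840 counts each, and values are given in CPM, counts scaled to the library total with TMM factors. The first principal component of the day 5 libraries carried 63.09% of the variance and separated the genotypes, and the second carried 17.72% and separated KO line A2 from A5 and B1. The WT libraries differed little among themselves, with a chi-square per degree of freedom of 1.291 to 1.804 between pairs, against 5.751 for A5 and B1 and 11.67 and 13.03 for the pairs with A2. Whole chromosomes stood apart in single lines: relative to the WT mean the median log2 ratio of line A2 was 0.311 on chromosome 1, -0.462 on chromosome 11 and -0.447 on chromosome 16, that of line B1 was -0.403 on chromosome 16, and over 5 Y-linked genes it was -3.706 in A2, -0.772 in A5 and 0.694 in B1. On chromosome 8 the 3 KO lines lay at -0.183, -0.141 and -0.121 (A5, B1 and A2) and the WT libraries at up to 0.075. Outside these 5 chromosomes 1853 genes were called in a fit without them, 1023 higher and 830 lower. Where a gene named below lies on one of these chromosomes, this is said beside it, and the part of the chromosome in its value was not tested.

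**Figure D1:**
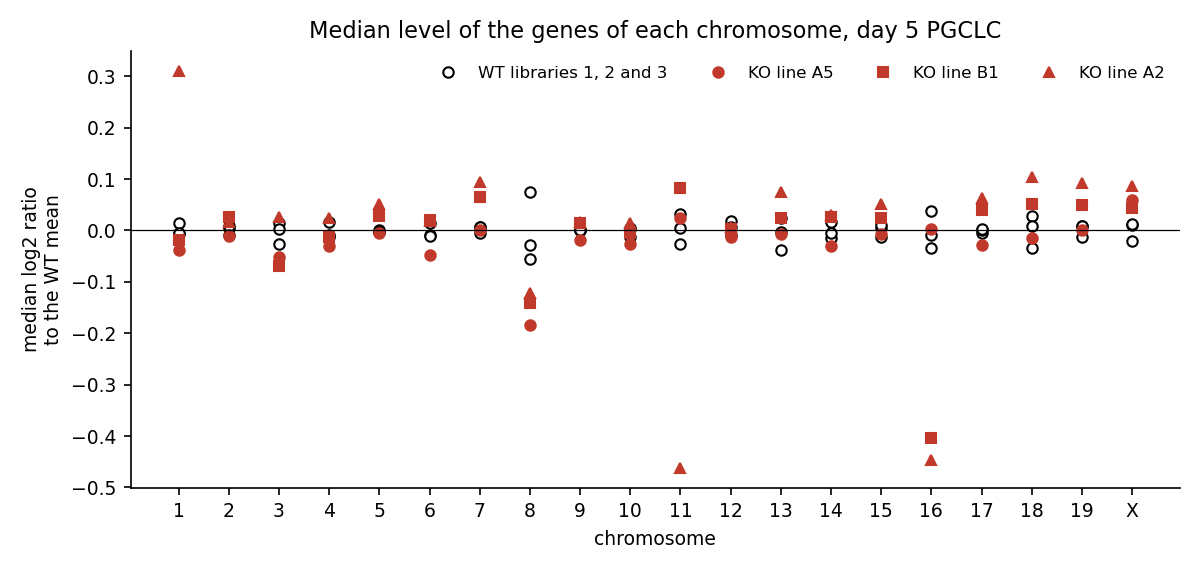
Median log2 ratio to the WT mean (y axis) of the genes of each autosome and the X chromosome (x axis) in each of the 6 day 5 libraries, WT as open circles and the KO lines as filled symbols. Line A2 lies at 0.311 on chromosome 1 and at -0.462 on chromosome 11, A2 and B1 lie at -0.447 and -0.403 on chromosome 16, and the 3 KO lines lie below 0 on chromosome 8.

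The germ cell label was checked on 7 markers (Dppa3, Prdm1, Prdm14, Tfap2c, Nanos3, Dnd1 and Kit), all of which had counts in all 6 libraries, with a summed level of 797 to 813 CPM in WT and 610 to 1020 CPM in KO. The 4 epiblast markers summed to 197 to 223 CPM in WT and 306, 169 and 295 CPM in lines A5, B1 and A2. The 5 neural ectoderm markers summed to 32.8 to 34.5 CPM in WT and to 16.1 to 24.3 CPM in KO, lower in all 3 lines. Among other lineages, 6 mesoderm markers summed to 14 to 18 CPM in WT and 14.9 to 19.4 CPM in KO, and 5 endoderm markers to 6.82 to 8.2 CPM and 6.17 to 9.18 CPM. The sum of 5 mesenchyme markers was 4.62 to 8.4 CPM in WT and 13.5, 21.9 and 74.3 CPM in lines A5, B1 and A2. Its most abundant member in KO was Col1a1, a collagen gene on chromosome 11, at 2.21, 4.2 and 3.92 CPM in WT and 5.7, 15.9 and 51.6 CPM in KO (log2 fold change 2.83 ± 0.78, adjusted p = 0.021), a call that ended without line A2 (adjusted p = 0.183) and without WT 1 (0.0863), WT 2 (0.0591) or WT 3 (0.063), and with the replicate block, which takes the KO line as a random effect (0.161). In sorted cells counted in bulk, fewer cells of a type and less RNA per cell cannot be told apart.

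Esrrb itself was at 588, 597 and 562 CPM in WT libraries 1, 2 and 3 and at 142, 200.5 and 129 CPM in KO lines A5, B1 and A2. All KO libraries lay below all WT libraries, with a mean of 157 CPM against 582 CPM. The log2 fold change of KO over WT was -1.89 ± 0.42 (SE, n = 3 per group; adjusted p = 0.00598), and the call held with any day 5 library left out. At day 3 the difference was -2.13 ± 0.43 (adjusted p = 0.00553). The counts are per gene and the labels do not state the deleted part, so they cannot say which transcript part remained. In EpiLC, where Esrrb was low, the library labelled KO A2 held 39.7 CPM against 20.6 to 33.2 CPM in WT. KO lines A5 and B1 held 6.7 and 4.53 CPM. The Esrrb level of the A2 library was thus not below WT. Its deviations from the group mean over all genes correlated with those of line A2 at day 3 (0.219) and day 5 (0.203). The same values were 0.208 and 0.203 for A5 and 0.17 and 0.11 for B1. Whether this library is rightly labelled was not tested. The EpiLC library labelled KO A2 enters the shared spread of the fit, and several day 5 results below change without it, with both values given. The fit without it was not planned and was chosen after seeing the data.

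Across 12856 genes tested, 2244 (17.5%) differed between KO and WT at day 5 with an adjusted p under 0.05, 1264 of them higher (9.83%) and 980 lower (7.62%) in KO. More than 4-fold differences were seen for 230 genes that were higher and 99 that were lower. The KO and WT libraries did not overlap for 5286 genes (41.1% of those tested) and for 2203 of the 2244 called genes. The median log2 fold change of all genes tested was 0.01. The count of calls was 1303 to 2187 when 1 of the 6 libraries was left out. It was 1344, 1393 and 1303 without WT 1, 2 and 3 and 1478 without KO line A2. It rose to 3597 without the EpiLC library labelled KO A2 (1967 higher and 1630 lower). With the day 5 libraries alone it was 2407 (1301 higher and 1106 lower). Counts of list members given below for such other fits stand beside the count of all calls in the same fit, not beside 9.83% and 7.62%.

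**Figure D2:**
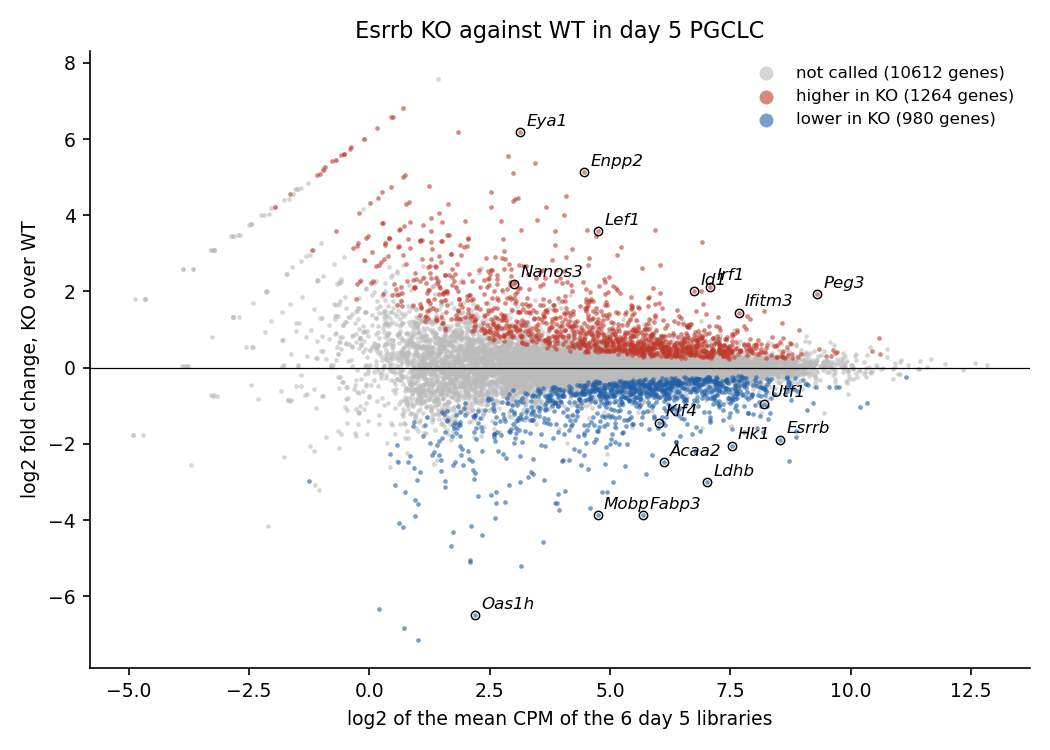
Log2 fold change of KO over WT (y axis) against the log2 of the mean CPM of the 6 day 5 libraries (x axis), 1 point per gene tested and 10612 not called in grey, with 1264 genes called higher in red and 980 called lower in blue. Circles mark named genes; points on the steep diagonal at the left are genes with almost no WT counts, whose fitted fold change depends on the prior count.

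The 15 genes that fell most, among called genes of at least 5 CPM in the mean of the higher group with no overlap between groups, included lipid-binding proteins, a glycolipid enzyme and muscle and myelin genes. Fabp3 and Fabp5, which encode cytosolic fatty acid-binding proteins, were at 92.1, 91 and 107 CPM and 48.6, 42 and 43.2 CPM in WT and at 8.31, 5.8 and 5.71 CPM and 4.27, 3.22 and 2.86 CPM in KO. Their log2 fold changes were -3.87 ± 0.43 and -3.69 ± 0.29 (adjusted p = 2.01e-05 and 9.28e-07). Mobp, a myelin-associated gene, fell from 53.6, 40.6 and 56.3 CPM to 3.09, 4.3 and 2.86 CPM (-3.87 ± 0.22, adjusted p = 1.8e-08). St8sia1, the GD3 synthase that adds sialic acid to gangliosides, went from 29.1, 29 and 27 CPM to 2.61, 2.58 and 1.22 CPM (-3.73 ± 0.28, adjusted p = 4.06e-07). Smyd1, a muscle histone methyltransferase, was at 18.5, 16.6 and 17.1 CPM in WT and 0.949, 0.43 and 0 CPM in KO (-5.22 ± 0.58, adjusted p = 3.91e-05). These KO levels were low in all 3 lines, A2 included.

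Several of the lowest genes were all but absent from the KO libraries. Oas1h, a member of the 2'-5' oligoadenylate synthetase family, had 130 counts in WT and 1 in KO, a ratio of 125 (exact binomial 95% counting interval 22 to 4980). Amn, a subunit of the cubilin receptor complex, had 90 and 3 counts (ratio 28.9, 9.56 to 143). For Arhgap9 the WT libraries held 25.7, 25.2 and 29.3 CPM and the KO libraries 1.9, 1.29 and 3.47 CPM (-3.56 ± 0.29, adjusted p = 9.45e-07). Pcsk1n, a proprotein convertase inhibitor on the X chromosome, held 23.5, 27.6 and 31.2 CPM and 1.66, 3.65 and 1.63 CPM (-3.54 ± 0.41, adjusted p = 2.56e-05). St8sia5, a sialyltransferase gene, had 118 and 3 counts (ratio 37.8, 12.6 to 186). Ism2, Glod5, Slc39a2 and Car8 were also among the 15 lowest genes, at log2 fold changes of -4.40, -4.31, -4.16 and -3.55. The intervals cover counting error only.

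The 15 genes that rose most by the same rule included developmental transcription factors and guanylate-binding proteins. Eya1, a transcriptional coactivator on chromosome 1, had 3 counts in WT and 245 in KO, a ratio of 84.9 (28.7 to 415), with 10.2, 7.74 and 33.9 CPM in lines A5, B1 and A2. Bcl11a, a zinc finger repressor on chromosome 11, was at 0.401, 0.4 and 0 CPM in WT and 19.2, 8.17 and 16.1 CPM in KO (5.56 ± 0.56, adjusted p = 9.32e-06). Ebf1, an early B cell factor on the same chromosome, was at 1.41, 0.6 and 2.31 CPM and 17.6, 26 and 54.3 CPM (4.51 ± 0.56, adjusted p = 5.48e-05). For both, the part of chromosome 11 in the value was not tested. Enpp2, which encodes the enzyme autotaxin, rose from 0.803, 0.8 and 2.08 CPM to 34.2, 49.2 and 44.5 CPM and had the smallest adjusted p of the rising genes named here (5.13 ± 0.26, adjusted p = 9.23e-09). Gap43, a growth cone protein on chromosome 16, rose from 0.602, 0.4 and 0.231 CPM to 15, 7.52 and 23.9 CPM (5.12 ± 0.59, adjusted p = 2.56e-05). Cyclin D2 (Ccnd2) rose from 1, 0.8 and 0.231 CPM to 17.1, 16.8 and 12.7 CPM (4.42 ± 0.78, adjusted p = 0.00119) and the calcitonin gene Calca from 1.2, 1.8 and 2.77 CPM to 30.6, 25.6 and 36.3 CPM (adjusted p = 9.44e-06). WT levels of these genes were near 0, so their fold changes rest on few WT counts. Tgm3, Accsl and 1 of the entries named Pde4d stood among the 15 highest too, beside Zbp1 and 4 guanylate-binding proteins described with the interferon genes.

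Genes of the naive pluripotency network that passed the test were mostly lower in KO. Of 23 tested members, 5 were called lower (against 7.62% of all genes) and 1 higher, and the median log2 fold change was -0.43. Klf4, a naive Kruppel-like factor, was at 97.1, 94.4 and 94.4 CPM in WT and at 17.1, 51.6 and 36.3 CPM in lines A5, B1 and A2 (-1.44 ± 0.36, adjusted p = 0.0117). Line A5 was the lowest and B1 the highest of the KO lines. Tcl1, an activator of AKT, fell from 43.9, 41.8 and 35.1 CPM to 12.3, 11.4 and 21.6 CPM (-1.41 ± 0.24, adjusted p = 0.000778). Jam2, a junctional adhesion molecule on chromosome 16, fell from 122, 119 and 108 CPM to 53.4, 73.3 and 33.7 CPM (-1.12 ± 0.25, adjusted p = 0.00498). The part of that chromosome in its value was not tested. Mybl2, a cell cycle transcription factor, fell from 579.5, 586 and 559.5 CPM to 347, 381 and 399.7 CPM (-0.61 ± 0.19, adjusted p = 0.0338; chosen after its values were seen), and Fgf4, the FGF ligand of pluripotent cells, from 317, 317 and 335 CPM to 112, 125 and 189.8 CPM (-1.18 ± 0.37, adjusted p = 0.0393). The Fgf4 call ended without WT 1 (0.0875), WT 2 (0.0849), WT 3 (0.0984), KO A5 (0.117) or KO B1 (0.114).

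Other core naive factors had non-overlapping groups but wide spread across the series. Tfcp2l1, on chromosome 1, was at 394, 393 and 387 CPM in WT and at 94.2, 179 and 245 CPM in KO (-1.18 ± 0.53, adjusted p = 0.14). Tbx3 was at 184, 184 and 172 CPM and 26.8, 81.9 and 72.2 CPM (-1.57 ± 0.67, adjusted p = 0.122). Nanog was at 731, 683 and 693 CPM and 408, 567 and 518 CPM (-0.50 ± 0.34, adjusted p = 0.341), and Zfp42, on chromosome 8, at 253, 253 and 213 CPM and 131, 172 and 152 CPM (-0.66 ± 0.23, adjusted p = 0.0623). In all 4 genes every KO library lay below every WT library, and none passed the edgeR test with all 18 libraries. In either direction, the groups did not overlap in 16 of the 23 list members and in 41.1% of all genes tested. Over the same libraries with the KO line as a replicate block, Tfcp2l1 (adjusted p = 0.0203), Tbx3 (0.0142) and Zfp42 (0.0252) passed and Nanog (0.149) did not, and DESeq2 called Zfp42 (0.0456) of the 4. Fitted on the 6 day 5 libraries alone, they passed with adjusted p = 0.0179, 0.0095, 0.0214 and 0.00614, and without the EpiLC library labelled KO A2 with 0.00597, 0.0121, 0.0129 and 0.00299. Over the list, 11 members were then lower and 4 higher with the day 5 libraries alone, and 11 lower and 5 higher without that EpiLC library. Over all genes 1106 were lower and 1301 higher in the first of these fits, and 1630 lower and 1967 higher in the second. With 1 day 5 library left out of the full fit, 3 to 4 were lower: 3 without WT 1, WT 2, WT 3 or KO line B1. Klf2 went the other way, at 363, 380.3 and 359 CPM in WT and 521, 703 and 482 CPM in KO (0.63 ± 0.22, adjusted p = 0.0608; adjusted p = 0.0134 with the day 5 libraries alone, 0.0398 without the EpiLC library labelled KO A2 and 0.0454 in DESeq2), and lies on chromosome 8. Klf5 was at 91.5, 97.6 and 96.7 CPM and 48.2, 74.1 and 89.8 CPM (-0.43 ± 0.44, adjusted p = 0.546), and Nr5a2 and Prdm14, both on chromosome 1, overlapped between groups. The member called higher was Sall1, on chromosome 8, at 83.3, 87.8 and 72.5 CPM and 141, 137 and 145 CPM (0.79 ± 0.19, adjusted p = 0.0096), and its call ended without WT 3 (0.0521).

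The shared pluripotency factors did not move together. Pou5f1, the central factor of pluripotent and germ cells, was at 654, 679.9 and 661 CPM in WT and 699, 952 and 1120 CPM in KO (0.47 ± 0.15, adjusted p = 0.0377). The call of Pou5f1 ended without WT 1 (adjusted p = 0.109), WT 2 (0.0868), WT 3 (0.106), KO B1 (0.0902) or KO A2 (0.196), and with the day 5 libraries alone (0.0563). Its partner Sox2 was at 928, 903 and 939.6 CPM and 629, 737 and 782 CPM (-0.37 ± 0.16, adjusted p = 0.135; adjusted p = 0.0313 with the day 5 libraries alone and 0.0131 without the EpiLC library labelled KO A2). Utf1, a chromatin factor of embryonic stem cells, fell from 389.5, 405 and 359 CPM to 181, 193 and 226 CPM (-0.94 ± 0.10, adjusted p = 1.16e-05). Lin28a, an inhibitor of let-7 microRNA maturation, rose from 131, 130.2 and 127 CPM to 339.8, 226 and 434 CPM (1.36 ± 0.20, adjusted p = 0.000298), Foxd3 rose from 17.7, 16.2 and 13.2 CPM to 22.1, 36.5 and 40.2 CPM (1.07 ± 0.24, adjusted p = 0.00613), and Mycn from 91.3, 86.2 and 82.2 CPM to 132, 183 and 338 CPM (1.33 ± 0.22, adjusted p = 0.000713). The Mycn difference was 1.33 with all lines and 0.86 without line A2. Of 17 tested members of this list, 4 were called higher and 1 lower, against 9.83% and 7.62% of all genes. Without the EpiLC library labelled KO A2 the counts were 7 and 3.

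Among the factors that set up the germ cell programme Prdm1 rose, while Tfap2c and Prdm14 were not called. Prdm1 (Blimp1), the repressor of the somatic programme, was at 27.3, 30 and 25.9 CPM in WT and 56.7, 71.8 and 68.4 CPM in KO (1.24 ± 0.26, adjusted p = 0.00406). Nanos3, an RNA-binding protein that protects germ cells from apoptosis and lies on chromosome 8, was at 3.01, 2.8 and 2.77 CPM and 9.02, 19.6 and 11.2 CPM (2.20 ± 0.37, adjusted p = 0.00111). The interferon-induced transmembrane genes Ifitm3 and Ifitm1, surface markers of early germ cells, rose from 112, 106 and 109.9 CPM and 146, 132 and 145 CPM to 251, 316 and 325 CPM and 317, 328 and 377 CPM. Their log2 fold changes were 1.44 ± 0.21 and 1.27 ± 0.16 (adjusted p = 0.000218 and 4.86e-05), and Ifitm1 was chosen after its values were seen. By contrast Tfap2c was at 194, 194 and 192 CPM in WT and 166, 196 and 154 CPM in KO (-0.17 ± 0.34, adjusted p = 0.777) and Prdm14, on chromosome 1, at 62.6, 65 and 65.1 CPM and 51, 98.6 and 70.6 CPM (0.19 ± 0.25, adjusted p = 0.639). Both overlapped between the groups. Dppa3, whose reporter defined the gate, was at 270.1, 266 and 289.7 CPM and 219.7, 409 and 347 CPM (0.24 ± 0.29, adjusted p = 0.61), and Dppa5a, the other reporter gene, at 348, 324 and 353 CPM and 213, 229.9 and 263 CPM (-0.54 ± 0.23, adjusted p = 0.124; adjusted p = 0.00743 with the day 5 libraries alone and 0.000791 without the EpiLC library labelled KO A2).

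Kit, the receptor for stem cell factor on germ cells, was at 226, 227 and 221 CPM in WT and 91.8, 198 and 82 CPM in KO (-0.86 ± 0.30, adjusted p = 0.0591). Line B1 was the nearest to WT, and without it the adjusted p was 0.00277. Kit passed in DESeq2 (0.036), in limma-trend (0.042), with the 12 PGCLC libraries (0.0457), with the replicate block (0.0115) and without the EpiLC library labelled KO A2 (0.0299). It did not pass with the day 5 libraries alone (0.0633) or without line A2 at every stage (0.104). Rhox5, a homeobox gene of the X chromosome, fell from 451, 438 and 434 CPM to 208, 146 and 59.6 CPM (-1.68 ± 0.39, adjusted p = 0.00789). Dazl, an RNA-binding protein of later germ cells, was at 94.5, 101 and 76.6 CPM and 57.9, 64.3 and 32.4 CPM (-0.82 ± 0.26, adjusted p = 0.0397), and its call ended without WT 1 (0.109), WT 2 (0.129), WT 3 (0.0562), KO A5 (0.0521) or KO A2 (0.162). Ddx4 overlapped, at 20.3, 23.4 and 29.5 CPM and 32.7, 26.2 and 18.8 CPM. Of 25 tested genes of germ cell specification 7 were called higher and 2 lower, against 9.83% and 7.62% of all genes. Their median log2 fold change was 0.19. Without the EpiLC library labelled KO A2 the lower count was 5, and it was 1 without any one of WT 1, WT 2, WT 3, KO A5 or KO A2. Of 32 tested genes of later germ cells and meiosis 4 were higher and 1 lower, against the same 9.83% and 7.62% of all genes. With 1 library left out 1 to 4 were higher. Without the EpiLC library labelled KO A2 6 were higher and 3 lower.

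**Figure D3:**
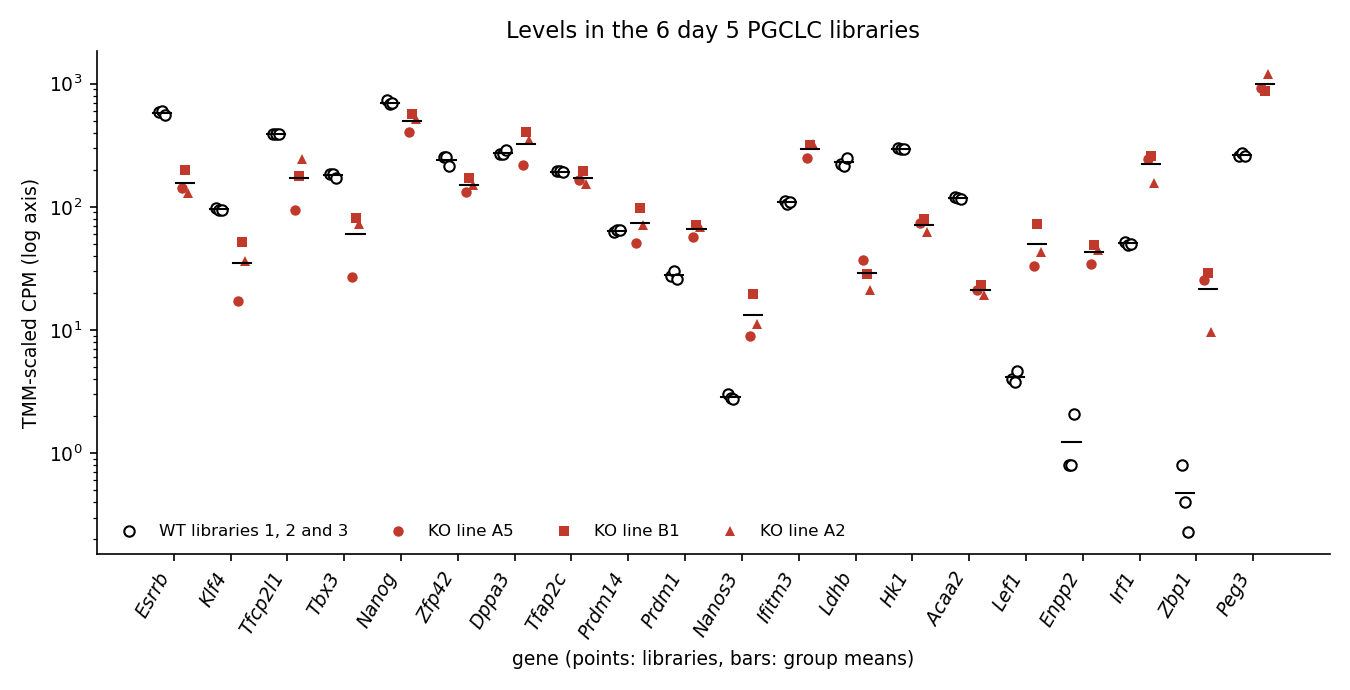
TMM-scaled CPM on a log axis (y axis) of 20 named genes (x axis) in the 6 day 5 libraries, with WT libraries as open circles, KO lines as filled symbols and group means as bars. Klf4, Tfcp2l1, Tbx3, Nanog, Zfp42 and Ldhb, Hk1 and Acaa2 sit lower in all 3 KO lines, Dppa3, Tfap2c and Prdm14 overlap between the groups, and Prdm1, Nanos3, Ifitm3, Lef1, Enpp2, Irf1, Zbp1 and Peg3 sit higher.

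Genes of the tricarboxylic acid cycle and fatty acid oxidation, the pathways that burn acetyl groups in mitochondria, were called in 1 direction only in this fit: 10 of 31 tested members were lower (against 7.62% of all genes) and 0 higher, with a median log2 fold change of -0.23. Acaa2, the thiolase of mitochondrial beta-oxidation, fell from 119.6, 118 and 116 CPM to 21.1, 23.2 and 19.4 CPM (-2.47 ± 0.13, adjusted p = 9.23e-09). Both groups were narrow and lay far apart. Idh2, the NADP-dependent mitochondrial isocitrate dehydrogenase, fell from 309, 290.1 and 298 CPM to 168, 173 and 168 CPM (-0.82 ± 0.18, adjusted p = 0.0052), Idh3a, a subunit of the NAD-dependent enzyme, from 231, 204 and 216 CPM to 165, 137 and 140 CPM (-0.56 ± 0.10, adjusted p = 0.000991), and Sucla2, a subunit of succinyl-CoA ligase, from 144, 154 and 156 CPM to 88.5, 89.4 and 84.9 CPM (-0.79 ± 0.08, adjusted p = 1.18e-05). Cpt2, a carnitine palmitoyltransferase, fell from 35.9, 32.4 and 36.7 CPM to 25.2, 25.4 and 19.4 CPM (-0.59 ± 0.18, adjusted p = 0.0306), a call that ended without WT 1 (0.0893), WT 2 (0.0529), WT 3 (0.0973) or KO A2 (0.134). In all, 21 members were not called. With 1 library left out 8 to 10 were lower, and without the EpiLC library labelled KO A2 13 were. At day 3, 6 members of the list were lower and 0 higher, where 10.2% of all genes were called in either direction.

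Of 34 tested nuclear-encoded subunits of the respiratory chain 4 were lower and 0 higher, a share not far from the 7.62% of all genes. Cox5a, a subunit of cytochrome c oxidase, fell from 246, 249.7 and 248 CPM to 126, 184 and 163 CPM (-0.65 ± 0.10, adjusted p = 0.00044). The lower count was 2 without WT 3 and 7 without the EpiLC library labelled KO A2. In glycolysis 5 of 30 tested members were lower and 1 higher, against 7.62% and 9.83% of all genes. Ldhb, the lactate dehydrogenase subunit that favours the oxidation of lactate, fell from 224, 216 and 251 CPM to 37.3, 28.6 and 21.2 CPM (-3.00 ± 0.23, adjusted p = 4.53e-07), while Ldha was at 1286, 1321 and 1371 CPM and 1222, 1515 and 1290 CPM (0.02 ± 0.13, adjusted p = 0.95). Hexokinase 1 (Hk1), which carries out the first step of glycolysis, fell from 300.4, 295 and 296 CPM to 73.6, 79.3 and 62.4 CPM (-2.05 ± 0.26, adjusted p = 6.97e-05). Pfkp, a phosphofructokinase, fell from 791, 811 and 723 CPM to 399.6, 469.9 and 358 CPM (-0.92 ± 0.22, adjusted p = 0.00848) and the pyruvate dehydrogenase kinase Pdk1 from 273, 268 and 261 CPM to 166, 188 and 141 CPM (-0.69 ± 0.13, adjusted p = 0.0016). The median of the list, -0.03, was near that of all genes. Of 7 tested mitochondrially encoded genes 0 passed in this fit, 2 had groups that did not overlap (against 41.1% of all genes), and 1 was called higher without KO line B1.

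WNT ligands and response genes that passed the test were mostly higher in KO. Of 22 tested members 10 were called higher and 1 lower, with a median log2 fold change of 1.23, against 9.83% higher and a median of 0.01 over all genes. Lef1, a nuclear effector of beta-catenin, rose from 4.01, 3.8 and 4.62 CPM to 33, 72.8 and 43.1 CPM (3.58 ± 0.31, adjusted p = 2.12e-06). Line B1 was the highest of the KO lines. Wnt3, a ligand, rose from 0.201, 0.4 and 0.462 CPM to 0.949, 7.09 and 3.27 CPM (3.34 ± 0.95, adjusted p = 0.0238), a call that ended without WT 1 (0.0907), WT 2 (0.0712), WT 3 (0.0662) or KO B1 (0.111) and with the replicate block (0.103). Sp5, a transcription factor induced by WNT, rose from 1.41, 0.6 and 0 CPM to 1.9, 7.09 and 4.49 CPM (2.66 ± 0.66, adjusted p = 0.0103), a call that ended without WT 2 (0.0511) or KO B1 (0.0515). Axin2, a feedback inhibitor induced by the pathway, rose from 12.8, 11.6 and 10.9 CPM to 23.7, 53.1 and 22.9 CPM (1.50 ± 0.30, adjusted p = 0.00284), and Rnf43, a ligase that removes WNT receptors, from 1.41, 1.6 and 1.39 CPM to 5.22, 3.65 and 5.1 CPM (1.65 ± 0.33, adjusted p = 0.00252). Wnt3, Axin2 and Rnf43 lie on chromosome 11, and Axin2 and Rnf43 were chosen after their values were seen. Wnt5a, a secreted ligand, had 3 counts in WT and 34 in KO (ratio 11.8, 3.71 to 60). Wnt7b, another ligand, went from 52.8, 52.8 and 48.7 CPM to 5.22, 7.52 and 3.27 CPM (-3.27 ± 0.90, adjusted p = 0.0208), a call that ended without KO A5 (0.0563) or KO A2 (0.0952). The count of members called higher was 6 without WT 1, WT 3 or KO line B1, 5 without WT 2, 6 with the day 5 libraries alone and 5 in the fit that drops chromosomes 1, 8, 11, 16 and Y. It was 12 without the EpiLC library labelled KO A2.

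Of 19 tested formative and primed epiblast genes 7 were called higher (against 9.83% of all genes) and 0 lower, with a median log2 fold change of 0.74. Without KO A5 2 of them were lower, and without the EpiLC library labelled KO A2 10 were higher. Of 20 tested Nodal and activin genes 5 were higher and 0 lower (median 0.14), against 9.83% and 7.62% of all genes. Without that EpiLC library the counts were 7 and 1. Nodal, the ligand, rose from 27.3, 20.8 and 24.2 CPM to 72.6, 78 and 106 CPM (1.83 ± 0.40, adjusted p = 0.00504), and its feedback inhibitor Lefty1, on chromosome 1, from 9.83, 7.8 and 9.93 CPM to 99, 72.6 and 168 CPM (3.62 ± 0.83, adjusted p = 0.00692). Follistatin (Fst), which binds activin, had 0 counts in WT and 19 in KO, at least 6.59-fold higher against a floor of 3 counts over the WT group, and its call ended with the replicate block (adjusted p = 0.0619). Otx2, a factor of the epiblast that opposes germ cell entry, overlapped between groups, at 34.3, 30.2 and 29.5 CPM and 53.4, 24.3 and 40.6 CPM (0.33 ± 0.39, adjusted p = 0.609). Fgf5, the usual marker of the primed epiblast, had 3 counts in WT and 30 in KO (ratio 10.4, 3.23 to 53.2). Its adjusted p of 0.0172 became 0.092 without KO A5, 0.0712 without WT 2, 0.0549 without WT 3 and 0.0552 with the replicate block.

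In the BMP list 6 of 20 tested members were higher and 1 lower, against 9.83% and 7.62% of all genes. The Id genes, inhibitors of bHLH factors and direct targets of BMP signalling, rose: Id1 from 45.8, 41.4 and 39.9 CPM to 224, 133 and 158 CPM (2.02 ± 0.30, adjusted p = 0.000308) and Id3 from 20.3, 25.2 and 18.7 CPM to 76.9, 76.3 and 46.3 CPM (1.63 ± 0.34, adjusted p = 0.00367). Bmp4, the ligand also supplied in the medium, was at 56.4, 48.4 and 47.8 CPM and 11.6, 12.7 and 2.24 CPM (-2.53 ± 0.69, adjusted p = 0.0204), and lost its call without WT 1 (0.0602) or KO A2 (0.0885). Msx1, a homeobox target of BMP, rose from 0.401, 0.6 and 0.462 CPM to 4.27, 2.58 and 6.53 CPM (3.12 ± 0.77, adjusted p = 0.0106), and lost its call without WT 1 (0.0516). The higher count was 3 without WT 1. In the FGF and ERK list 6 of 23 were higher and 2 lower, against the same 9.83% and 7.62% of all genes. The lower count was 0 without WT 1, WT 2 or WT 3. Egr1, an immediate early target of ERK, rose from 59.4, 78.8 and 69.9 CPM to 162, 213 and 175 CPM (1.41 ± 0.26, adjusted p = 0.00178), Il17rd, a feedback inhibitor of FGF signalling, from 46.8, 53 and 45.9 CPM to 99, 125 and 150.4 CPM (1.36 ± 0.29, adjusted p = 0.00475), and the ligand Fgf17 from 0.602, 0.4 and 1.15 CPM to 5.93, 3.65 and 13.1 CPM (3.38 ± 0.69, adjusted p = 0.00325). Egr1 and Fos also belong to the genes induced by cell dissociation. Of 19 tested genes of that list 3 were higher and 1 lower, against 9.83% and 7.62% of all genes. The higher count was 8 with the day 5 libraries alone or without the EpiLC library labelled KO A2, and 1 without WT 1. The part of dissociation in Egr1 was not tested.

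Of 22 tested interferon response genes 8 were called higher (against 9.83% of all genes) and 0 lower, and the median log2 fold change was 1.59. Per line, the list's median log2 ratio to the WT mean was 1.50, 1.14 and 0.27 in A5, B1 and A2. Irf1, a transcription factor induced by interferon gamma on chromosome 11, rose from 52, 49.4 and 50.1 CPM to 247, 261 and 156 CPM (2.13 ± 0.27, adjusted p = 7.29e-05). The immunoproteasome subunit Psmb8 rose from 0.803, 1.2 and 0.462 CPM to 14.5, 18.9 and 4.08 CPM (3.85 ± 0.62, adjusted p = 0.000566) and Psmb9 from 1.2, 0.8 and 1.85 CPM to 5.7, 4.51 and 2.86 CPM (1.75 ± 0.38, adjusted p = 0.00448). Zbp1, a sensor of Z-form nucleic acids, rose from 0.803, 0.4 and 0.231 CPM to 25.4, 29 and 9.59 CPM (5.37 ± 0.51, adjusted p = 5e-06). No KO library of these genes fell within the WT range. Isg15 had 2 counts in WT and 25 in KO (ratio 13, 3.24 to 113), and its adjusted p of 0.0288 became 0.116 without KO B1, 0.0779 without WT 1, 0.103 without WT 2 and 0.0697 without WT 3. The list's count was 5 without WT 2 and 15 without line A2 at every stage.

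The guanylate-binding proteins, GTPases that are strongly induced by interferon, made up 4 of the 15 highest genes. Gbp2 was at 1.2, 1.2 and 1.39 CPM in WT and 43.4, 20.4 and 8.37 CPM in KO (4.22 ± 0.74, adjusted p = 0.00115), Gbp3 at 0.201, 0.8 and 1.15 CPM and 26.1, 17.2 and 5.31 CPM (4.46 ± 0.82, adjusted p = 0.0015), and Gbp7 at 0.602, 0 and 1.15 CPM and 17.3, 9.24 and 6.33 CPM (4.21 ± 0.77, adjusted p = 0.0015). With the replicate block the calls of Gbp3 (0.0656) and Gbp1 (0.078) ended. In each of the 3, line A5 was the highest and A2 the lowest KO library, still above WT. These genes are related copies in 1 cluster on chromosome 3, and how reads shared between copies were counted is not stated in the labels, so the split between them is uncertain. The 250 bases before their start sites are printed because all 3 hold the letters GAAANNGAA, the core of the interferon-stimulated response element, on the strand opposite to the gene (capitals, which in Gbp3 cover 2 overlapping matches; RefSeq, GRCm38.p6). Over both strands this motif stood in the same window of 7.13% of 32851 promoters. A match is a description and no evidence of a bound site. Positions are chr3:142620413-142620662, plus strand, chr3:142559794-142560043, plus strand and chr3:142530086-142530335, plus strand.
Gbp2: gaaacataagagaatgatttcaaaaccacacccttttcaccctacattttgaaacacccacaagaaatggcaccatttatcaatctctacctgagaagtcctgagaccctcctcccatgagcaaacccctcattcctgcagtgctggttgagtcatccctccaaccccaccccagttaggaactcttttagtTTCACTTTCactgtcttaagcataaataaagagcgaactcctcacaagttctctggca
Gbp3: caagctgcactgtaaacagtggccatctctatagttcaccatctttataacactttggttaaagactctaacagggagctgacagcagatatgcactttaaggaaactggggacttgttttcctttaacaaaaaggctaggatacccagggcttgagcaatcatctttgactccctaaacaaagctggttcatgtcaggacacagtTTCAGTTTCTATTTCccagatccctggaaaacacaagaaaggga
Gbp7: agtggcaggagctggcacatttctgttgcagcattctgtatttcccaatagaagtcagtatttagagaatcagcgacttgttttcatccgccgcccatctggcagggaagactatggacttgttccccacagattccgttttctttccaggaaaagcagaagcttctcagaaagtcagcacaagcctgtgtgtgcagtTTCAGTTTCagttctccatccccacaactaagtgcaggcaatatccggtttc

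The same search was made for TCAAGGTCA, the extended half-site bound by estrogen-related receptors. It stood in the 250 bases before the start of 0.387% of 32851 promoters over both strands. Promoters were matched to 79.5% of the tested genes, under the 80% needed, so a comparison of shares between called genes and other genes is void. Of the 13 naive pluripotency genes with a promoter 0 held it, which says only that these letters are not in this window. Among genes with a promoter, the letters stood there in 5 of 777 called lower, 2 of 983 called higher and 25 of 8456 not called. The 2 called higher were Mfsd10 and Sgk1, named here for the motif. These counts are not compared. Of the 5 called lower, 3 are shown, with the half-site in capitals. These kept their call with any day 5 library left out and fell by more than 1 on the log2 scale. They were chosen for the motif and for their fall after their values were seen, so they do not describe the genes with the motif as a set. Bhmt, a methyltransferase that makes methionine from betaine, was at 4.21, 2.8 and 3.92 CPM in WT and 0, 0.645 and 0 CPM in KO (-3.90 ± 0.92, adjusted p = 0.012), and the log2 value was -6.98 without KO B1. Gjb1, a gap junction connexin of the X chromosome, was at 6.42, 4.2 and 5.54 CPM and 0.712, 1.07 and 0 CPM (-3.14 ± 0.59, adjusted p = 0.00165). Tmem191c, a membrane protein gene on chromosome 16, was at 66.6, 77.4 and 76.9 CPM and 35.6, 30.3 and 13.7 CPM (-1.48 ± 0.27, adjusted p = 0.00141). The part of that chromosome in its value was not tested. Positions in GRCm38.p6 (RefSeq) are chr13:93637759-93638008, minus strand, chrX:101381868-101382117, plus strand and chr16:17276050-17276299, plus strand.
Bhmt: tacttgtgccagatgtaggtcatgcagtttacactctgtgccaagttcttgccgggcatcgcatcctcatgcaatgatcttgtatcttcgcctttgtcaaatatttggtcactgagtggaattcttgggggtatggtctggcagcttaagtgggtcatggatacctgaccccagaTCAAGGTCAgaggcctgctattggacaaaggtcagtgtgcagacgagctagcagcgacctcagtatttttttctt
Gjb1: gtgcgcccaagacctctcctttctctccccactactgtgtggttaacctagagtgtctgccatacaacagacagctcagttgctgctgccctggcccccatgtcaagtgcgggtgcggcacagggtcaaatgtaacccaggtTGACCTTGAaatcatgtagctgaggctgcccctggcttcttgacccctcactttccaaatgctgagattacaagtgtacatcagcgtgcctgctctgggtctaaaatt
Tmem191c: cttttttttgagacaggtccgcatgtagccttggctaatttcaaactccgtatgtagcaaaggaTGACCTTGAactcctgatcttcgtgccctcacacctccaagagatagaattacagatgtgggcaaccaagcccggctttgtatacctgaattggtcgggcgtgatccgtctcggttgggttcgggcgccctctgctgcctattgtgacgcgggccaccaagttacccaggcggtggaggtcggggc

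Imprinted genes, which are expressed from 1 parental allele under the control of DNA methylation, were higher in 9 and lower in 2 of 24 tested members (median log2 fold change 0.61), against 9.83% and 7.62% of all genes. Peg3, a paternally expressed zinc finger gene, rose from 257, 276 and 256 CPM to 918, 871 and 1207 CPM (1.93 ± 0.43, adjusted p = 0.00646). Meg3, a maternally expressed long noncoding RNA, rose from 21.9, 23.6 and 21.9 CPM to 144, 82.1 and 432 CPM (3.29 ± 0.47, adjusted p = 0.00024), with line A2 at the top. Mest, a paternally expressed hydrolase gene, rose from 25.5, 20.6 and 21.9 CPM to 88.3, 63.6 and 138 CPM (2.09 ± 0.22, adjusted p = 1.18e-05). Genes expressed from either parental allele were thus among those that rose. Allele-specific expression was not measured. The higher count was 5 without WT 3.

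Of 21 tested genes of DNA methylation and demethylation 2 were higher and 3 lower, against 9.83% and 7.62% of all genes. Dnmt3a, a de novo methyltransferase, rose from 119, 122 and 103 CPM to 196, 157 and 223 CPM (0.74 ± 0.15, adjusted p = 0.00366). Dnmt3b was at 181, 157 and 159 CPM and 229.9, 137 and 241 CPM (0.29 ± 0.31, adjusted p = 0.562) and overlapped. Dnmt3l, the catalytically inactive partner, was at 117, 124 and 115 CPM in WT and 119.8, 30.7 and 120.2 CPM in KO, with line B1 alone low. Dnmt1, Uhrf1 and Tet1 had log2 fold changes of 0.23, 0.13 and 0.06, none of them called. Gadd45a, a stress gene linked to active demethylation, fell from 96.7, 93.4 and 94.9 CPM to 31.3, 36.3 and 27.6 CPM (-1.58 ± 0.17, adjusted p = 1.18e-05). Without WT 3 or without KO A2 the lower count of the list was 1, and without KO A2 the higher count was 1. Among 25 tested histone methylation genes 4 were higher and 1 lower, against the same 9.83% and 7.62% of all genes. Without the EpiLC library labelled KO A2 the counts were 7 and 3. Ehmt2 (G9a), which writes H3K9 dimethylation, rose from 189.8, 219 and 204 CPM to 302, 300 and 320.4 CPM (0.59 ± 0.13, adjusted p = 0.00422), and Phf19, a Polycomb-associated protein, fell from 56.8, 53.4 and 53.6 CPM to 15.4, 21.1 and 5.92 CPM (-1.95 ± 0.31, adjusted p = 0.000469).

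Of 19 tested nuclear receptors and partners, Esrrb included, 4 were higher and 1 lower, against 9.83% and 7.62% of all genes. The higher count was 2 without WT 1 or WT 2. Esrra, another member of the family, was at 46.6, 56.8 and 56.3 CPM and 53.4, 47.9 and 36.1 CPM (-0.22 ± 0.16, adjusted p = 0.391) and overlapped. Nr2c1 (TR2) rose from 3.81, 2.6 and 2.31 CPM to 8.54, 6.45 and 7.75 CPM (1.36 ± 0.25, adjusted p = 0.00135). Proliferation genes were higher in 7 and lower in 2 of 31 tested members, against 9.83% and 7.62% of all genes. The higher count ranged from 3 to 11 with 1 library left out (3 without WT 1 or WT 2, 4 without WT 3 or KO A2, 11 without KO A5). Without the EpiLC library labelled KO A2 the counts were 14 and 3. The cell cycle inhibitor Cdkn1b rose from 30.9, 41.8 and 49.6 CPM to 58.4, 86.2 and 82.2 CPM (0.89 ± 0.18, adjusted p = 0.00263). For the KIT and migration list the counts were 4 higher and 1 lower of 19, against 9.83% and 7.62% of all genes, with 2 higher without WT 1. Cxcl12, the chemokine that guides migrating germ cells, rose from 1.41, 2.4 and 3.23 CPM to 13.5, 9.67 and 21.8 CPM (2.69 ± 0.52, adjusted p = 0.00223), a call that ended with the replicate block (0.0678). LIF and STAT3 response genes gave 1 higher and 1 lower of 18 with all libraries, against 9.83% and 7.62% of all genes. With the day 5 libraries alone 5 were higher and 2 lower. For p53 targets and apoptosis 4 of 23 were higher and 0 lower, and for cholesterol synthesis 3 and 2 of 21. Both stand against the same 9.83% and 7.62% of all genes. In the cholesterol list 1 was higher without WT 1, WT 2, WT 3 or KO B1. Markers of the two-cell-like state were low in both groups, at 0.4 to 1.85 CPM in sum over 3 genes in WT and 9.97, 3.44 and 12 CPM in A5, B1 and A2.

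**Figure D4:**
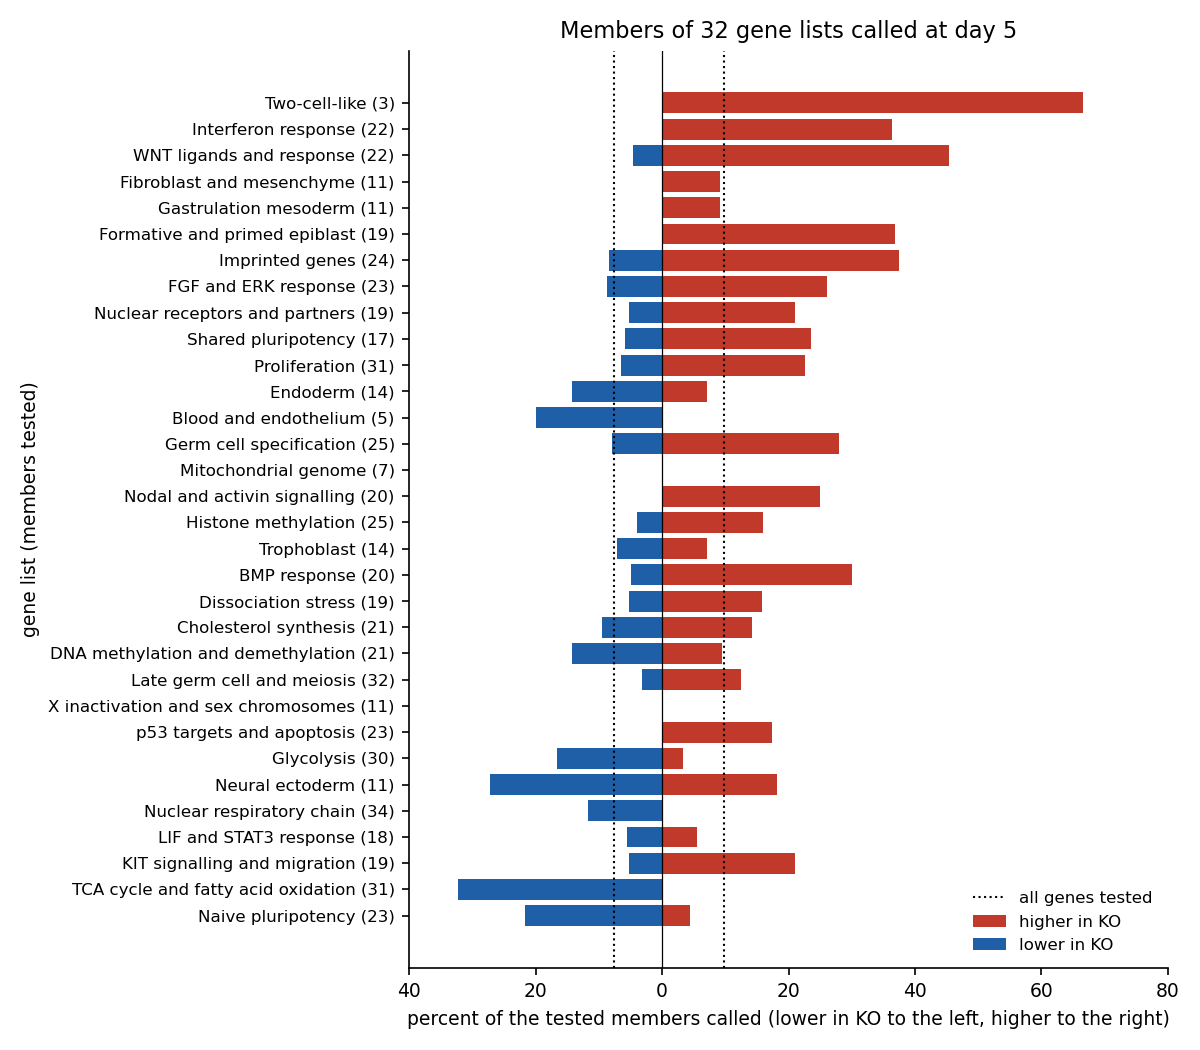
Percent of the tested members of 32 gene lists called lower (blue, to the left) or higher (red, to the right) in KO at day 5, ordered by the median log2 fold change, with the number of members tested in brackets; dotted lines mark the shares of all genes tested, 7.62% and 9.83%. The naive pluripotency list and the TCA (tricarboxylic acid) cycle and fatty acid oxidation list lie at the bottom. The two-cell-like list, of 3 tested genes, interferon and WNT genes lie at the top.

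The same KO lines were compared with WT at day 3, where 1310 of the 12856 genes (10.2%) were called. Of the 2244 genes called at day 5, 954 were called at day 3 as well, 42.5% of the day 5 calls and 72.8% of the day 3 calls, and all 954 had the same direction. Over all genes tested 77.9% had the same sign at both times, and the same KO lines were used at both. The median size of the log2 difference over the genes called at day 5 was 0.816 at day 5 and 0.565 at day 3, a contrast that the choice of genes at day 5 favours. Esrrb, Ldhb and Fabp5 had effects in the same direction at both times, at -2.13 ± 0.43, -2.93 ± 0.23 and -3.32 ± 0.30 at day 3. Of the interferon list 3 of 22 were called at day 3. Tested directly, 0 genes (0%) had an effect that differed between day 5 and day 3 after adjustment in edgeR (smallest adjusted p = 0.159, for Acaa2), 561 genes (4.36%) did at an unadjusted p under 0.05, DESeq2 called 11 and limma-trend 0. Among the 11 of DESeq2, Acaa2 fell further at day 5 (difference of the effects -1.11 in DESeq2), and the difference of Sall1, on chromosome 8, was positive (1.40). The edgeR count was 8 without the EpiLC library labelled KO A2 and 85 without line A2 at every stage. A gene called at only 1 of the times is therefore not shown to differ between them.

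**Figure D5:**
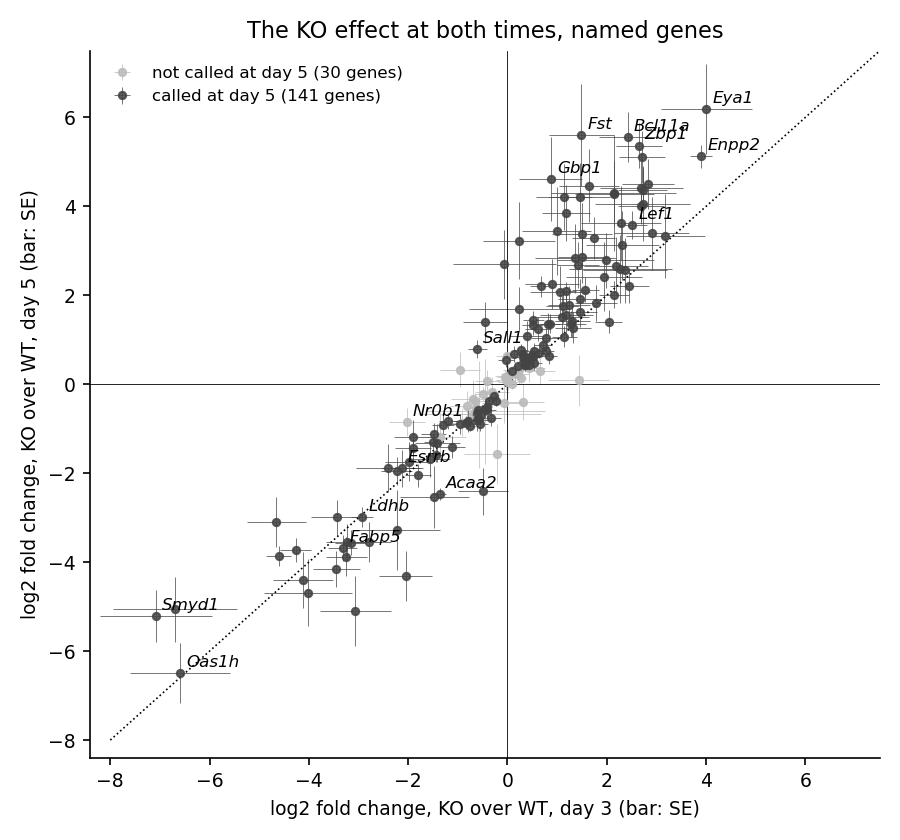
Log2 fold change of KO over WT at day 5 (y axis) against day 3 (x axis) for the 171 named genes, with standard errors as bars and a dotted line where both are equal; dark points are the 141 called at day 5. Zbp1, Gbp1 and Fst lie above the line, and Ldhb and Fabp5 lie near it on the negative side.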

How the data were processed

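Poly(A) RNA of sorted mouse cells was sequenced from 18 libraries in 6 groups of 3, per the labels' protocols (PicoPure RNA, NEBNext Ultra II Directional). The authors deposited raw counts per gene and CPM values (counts scaled to the library total). The submitters' processing notes name Trim Galore 0.4.3.1 and the builds mm10 and GRCm38.p4; no aligner, counter, annotation or strand setting is named there or in the labels. The deposited CPM were checked against the counts and are the same within 1e-06 in 18 libraries. Of 25965 entries, 56 name no gene (0.0668% to 0.0753% of the day 5 counts) and were left out.

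Counts were scaled by TMM, filtered with filterByExpr and fitted with edgeR 4.0.16 (R 4.3.3), quasi-likelihood with robust estimates, over 18 libraries in 6 groups. Adjusted p-values are Benjamini-Hochberg over all 12856 genes tested, called under 0.05; the SE is the log2 fold change divided by the root of F. The fit was tested on simulated counts with 1 spread for all genes (dispersion 0.0283), independent libraries, no line effect and no chromosome shift. That test therefore does not cover the line effects and the uneven spread of these data. Alternatives used DESeq2 1.42.0, limma 3.58.1, other scaling, no filter, fewer libraries, each library left out and a replicate block. KO libraries share line names across stages, and their deviations correlate within a line (0.11 to 0.588). Those of WT numbers do not (-0.0479 to 0.0659). The main fit has no term for the line and treats all libraries as independent. Only the replicate blocks use the pairing by line.

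Genes named are Esrrb and the 15 highest and 15 lowest called genes (at least 5 CPM in the higher group, no overlap, no predicted model). Added to these were up to 5 called members of each of 32 gene lists, those with the largest changes. A fixed set of germ cell, pluripotency, methylation and metabolic genes was named too. The rule also provided for the 5 highest and 5 lowest called differences between the times, but 0 genes passed. Exceptions are said in the text. Some genes that the rule names are not reported here. The members and lists were chosen with earlier results of these data known. Promoters from RefSeq (GRCm38.p6) were searched for the motifs on both strands; they cover 10216 tested genes, too few to compare shares between sets.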

Additional observations from a re-analysis of the deposited data

How the results depend on the processing

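The count of genes called at day 5 (2244) was 1303 to 2187 with 1 day 5 library left out (718 to 1235 higher and 585 to 952 lower). It was 3597 without the EpiLC library labelled KO A2 (1967 higher, 1630 lower) and 3887 without line A2 at every stage (2042 higher, 1845 lower). The day 3 count (1310) was 621 to 1463 with 1 day 3 library left out, 2454 without that EpiLC library and 2716 without line A2. The count of effects that differ between the times (0) was 11 in DESeq2, 5 with the 12 PGCLC libraries only, 8 without that EpiLC library and 85 without line A2. The cause of these shifts was not tested. Without that EpiLC library the members higher and lower were 7 and 2 of the nuclear receptors, 5 and 4 of the KIT list, 5 and 2 of the LIF list, 9 and 3 of the FGF list and 6 and 1 of the p53 list. Other scaling, no filter, DESeq2, limma-trend and fits with fewer groups kept the day 5 count between 1984 and 3048. The fit of the 12 PGCLC libraries (3048) and the fit without the EpiLC library labelled KO A2 (3597) were both chosen after seeing the data.

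With the replicate block (line as a random effect in limma-voom) 2410 genes were called at day 5, 1213 higher and 1197 lower, and 1325 at day 3; the naive pluripotency list then had 9 lower and 2 higher members. The block ended the calls of Col1a1 (adjusted p = 0.161), Cxcl12 (0.0678), Fgf5 (0.0552), Fst (0.0619), Gbp1 (0.078), Gbp3 (0.0656) and Wnt3 (0.103) among the genes described. With a fixed replicate block 0 effects differed between the times.

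Of 171 named genes 141 were called, and 95 of these kept the call with each library left out. Over 2697 comparisons of named genes with alternatives, 195 lost and 46 gained a call, and 13 reversed, none of them a called value. The reversed log2 values were Ddx4 at -0.033 without WT 1 and -0.116 without KO A5, Dnmt3l at 0.012, Nr5a2 at -0.076 and Prdm14 at -0.077 without KO B1, and Tet1 at -0.012 without WT 3 and -0.004 without line A2. Ldha was at -0.005 without WT 1, -0.079 without KO B1 and -0.013 without 5 chromosomes. Xist was at -0.131 without WT 3, -0.543 without KO A5 and -0.042 with the replicate block. With 1 day 5 library left out the ranges were -0.116 to 0.274 for Ddx4, -0.667 to 0.012 for Dnmt3l, -0.079 to 0.081 for Ldha, -0.076 to 0.173 for Nr5a2, -0.077 to 0.397 for Prdm14, -0.012 to 0.109 for Tet1 and -0.543 to 0.413 for Xist. Genes with few counts in 1 group are limited by depth, and their intervals cover counting error only.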
